A study of Mus musculus with 8 samples.

Results

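Transcripts of the major histocompatibility complex (MHC) and of the antigen presentation machinery were followed in 8 bulk RNA-seq libraries of mouse prostate tumours. The members are all genes whose symbol begins with H2- together with B2m, Tap1, Tap2, Tapbp, Psmb8, Psmb9, Psmb10, Nlrc5, Erap1, Ciita, Cd74 and Ctss. They number 54 of the 24028 genes in the tables. Of these, 40 belong to class I, 13 to class II, and H2-Ke6 carries the prefix by position only, since it encodes a steroid and fatty acid dehydrogenase and no MHC chain. The tumours grew from TRAMP-C2 cells, an epithelial prostate adenocarcinoma line that came from a TRAMP transgenic mouse of C57BL/6 background. Each host, a male C57BL/6 mouse with an intact immune system, received 1 M cells in the dorsolateral prostate, and tumours were taken 30 to 45 days later. The aged hosts were 20 to 24 months old and the young hosts 4 months old, and 4 tumours of each group were sequenced (aged 46, 47, 50 and 51, young 36, 37, 40 and 43, named by mouse number). The labels speak of 19 aged and 20 young injected mice, and the choice of these 4 per group is not given in the sources used here. All 8 tumours derive from 1 cell line, so the comparison is between hosts that received the same line. Whether the grown tumours differed in genotype was not tested.

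MHC class I molecules present peptides from inside the cell to CD8 T cells. The proteasome cuts the peptides, the TAP transporter moves them into the endoplasmic reticulum, Erap1 trims them, and tapasin (Tapbp) helps load them onto a heavy chain bound to beta-2-microglobulin. Class II molecules present endocytosed material to CD4 T cells and are found mainly on dendritic cells, macrophages and B cells. The invariant chain Cd74 holds their groove, cathepsin S (Ctss) cuts it away, and the H2-DM and H2-O heterodimers govern peptide exchange. Interferon gamma raises both pathways, class I largely through the transactivator Nlrc5 and class II through Ciita. TRAMP-C2 cells in culture are known for low class I, which interferon gamma raises. C57BL/6 mice carry the b haplotype, which has no L locus and a defective Ea gene.

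Promoter sequences are shown for 8 members whose levels varied together across the tumours. They are taken from RefSeq on GRCm38.p6, run 5′ to 3′ on the gene's strand and end at the base before the annotated start, and 39 of the 54 members had an entry. The first 4 are class I genes and the last 4 class II genes. Capitals mark the motifs searched on both strands. A palindromic NF-kappa-B site gives the first capitals in H2-K1 and H2-D1. The core of the interferon-stimulated response element (GAAA, any 2 bases, GAAA) gives the first capitals in B2m and, as its reverse complement, in H2-T23. The others are the Y box ATTGG on either strand, part of the class II X1 box (TAGCAAC) and the cyclic AMP response element TGACGTCA. None of the motifs holds another whole. The table has more than 1 start for H2-K1, and 1 of them is used. The stretch shown for H2-K1 lies inside the span given for that gene below, which reaches to 34000619.
H2-K1 (chr17:34000334-34000523, minus strand): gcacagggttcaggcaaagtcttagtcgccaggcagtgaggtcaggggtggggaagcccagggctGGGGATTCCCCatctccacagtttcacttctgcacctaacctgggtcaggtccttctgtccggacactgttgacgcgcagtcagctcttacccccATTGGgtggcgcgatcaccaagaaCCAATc
H2-D1 (chr17:35262904-35263093, plus strand): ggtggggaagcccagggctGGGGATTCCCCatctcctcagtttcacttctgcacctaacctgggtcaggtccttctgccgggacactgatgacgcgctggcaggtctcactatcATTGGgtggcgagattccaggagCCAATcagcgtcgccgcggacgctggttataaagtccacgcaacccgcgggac
B2m (chr2:122147497-122147686, plus strand): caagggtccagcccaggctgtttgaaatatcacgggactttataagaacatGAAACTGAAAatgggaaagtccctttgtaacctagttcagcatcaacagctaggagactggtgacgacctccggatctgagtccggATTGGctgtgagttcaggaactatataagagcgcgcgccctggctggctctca
H2-T23 (chr17:36032702-36032891, minus strand): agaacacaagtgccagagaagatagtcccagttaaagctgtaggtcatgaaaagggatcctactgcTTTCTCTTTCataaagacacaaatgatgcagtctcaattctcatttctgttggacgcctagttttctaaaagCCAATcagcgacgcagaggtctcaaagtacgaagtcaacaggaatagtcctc
H2-Aa (chr17:34287824-34288013, minus strand): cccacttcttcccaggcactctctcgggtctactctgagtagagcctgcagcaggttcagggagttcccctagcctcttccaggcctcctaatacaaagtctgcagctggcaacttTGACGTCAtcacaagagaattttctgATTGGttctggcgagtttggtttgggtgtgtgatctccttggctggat
H2-Eb1 (chr17:34305677-34305866, plus strand): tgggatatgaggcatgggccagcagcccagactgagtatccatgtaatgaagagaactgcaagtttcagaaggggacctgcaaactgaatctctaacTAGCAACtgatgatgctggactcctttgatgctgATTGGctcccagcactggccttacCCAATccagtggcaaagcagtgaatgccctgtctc
H2-DMb1 (chr17:34153001-34153190, plus strand): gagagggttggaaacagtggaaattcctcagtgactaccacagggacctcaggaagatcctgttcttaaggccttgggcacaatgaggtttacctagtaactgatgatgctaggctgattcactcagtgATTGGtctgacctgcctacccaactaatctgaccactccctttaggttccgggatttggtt
H2-Ob (chr17:34238715-34238904, plus strand): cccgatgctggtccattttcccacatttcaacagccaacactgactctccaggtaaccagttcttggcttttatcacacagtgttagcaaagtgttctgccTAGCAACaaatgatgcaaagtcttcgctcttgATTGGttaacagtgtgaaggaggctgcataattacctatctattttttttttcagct

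Over the whole promoter window of the table, which reaches further to both sides, ATTGG lay in 13 of the 17 class I promoters of tested genes and in 8 of 9 class II promoters. It lay in 41.1% of the 27025 genes with a promoter entry. The NF-kappa-B palindrome was added after these sequences had been seen. It lay in 2 of the 17, H2-K1 and H2-D1, and in 0.0333% of all genes, which is 9 genes, H2-Q6 among them. The interferon-stimulated response element core lay in 4 of the 17 class I promoters (B2m, Erap1, H2-T22 and H2-T23) and in 1 of 9 class II promoters (Ctss), against 3.99% of all. TAGCAAC lay in 3 of 9 class II promoters (H2-Eb1, H2-Eb2 and H2-Ob) and in 0 of 17 class I promoters, against 4.28% of all. TGACGTCA lay in that of H2-Aa alone among the tested members with an entry, against 2.03% of all. Near-identical class I genes share ancestry, so their matches are not separate observations, and a match is a description of letters, not of binding.

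Library depth ran from 27.1 M fragments in young 37 to 35.7 M in young 43. Levels are given as CPM, fragments scaled to a library of 1 M, and 3 fragments correspond to 0.084 to 0.111 CPM. Some libraries stood apart in transcripts of other tissues. The 3 tested seminal vesicle secretory genes summed to 21245 CPM in aged 50 and 31885 CPM in young 36, against 0.485 to 17.1 CPM in the other 6. The 4 tested skeletal muscle markers summed to 92 CPM in aged 51 against 9.29 to 36 CPM elsewhere. The epithelial markers Epcam, Krt8, Krt18, Krt19 and Cdh1 were detected in every tumour, and their sum ran from 61.8 CPM in young 43, where Epcam stood at 0.7 CPM, to 577 CPM in aged 50. In bulk RNA of a tumour, fewer cells of a type and less RNA per cell cannot be told apart, and transcripts of tumour cells and host cells are counted together.

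No member differed between the host ages past the threshold, and the members varied most within the aged group. Of the 39 members with enough fragments to be tested, edgeR's quasi-likelihood test called 0 at an adjusted p under 0.05, and 0 had an unadjusted p under 0.05. Over all 14575 genes tested, edgeR called 0, or 0%, and 4.99% (728 genes) had an unadjusted p under 0.05. DESeq2 called 43 genes (0.295%) and limma voom 9 (0.0617%), none of them a member. DESeq2 gave no p for 1 tested member, H2-Q10. Of the 26 tested class I members, 19 had lower fitted levels in aged tumours, with a median log2 fold change (aged minus young) of -0.12. Of the 12 tested class II members 8 were lower, with a median of -0.04. Over all tested genes 44.7% were lower and the median was 0.03. Both medians followed single tumours. The class I median went from -0.54 without aged 50 to 0.12 without aged 46, and was also above 0 without aged 51 (0.02) or young 40 (0.02). The class II median went from -0.54 without aged 50 to 0.31 without young 40, and was above 0 without aged 46 (0.26), aged 51 (0.28) or young 36 (0.04). Without aged 50 and young 36 together, the medians were -0.41 and -0.45.

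**Figure D1:**
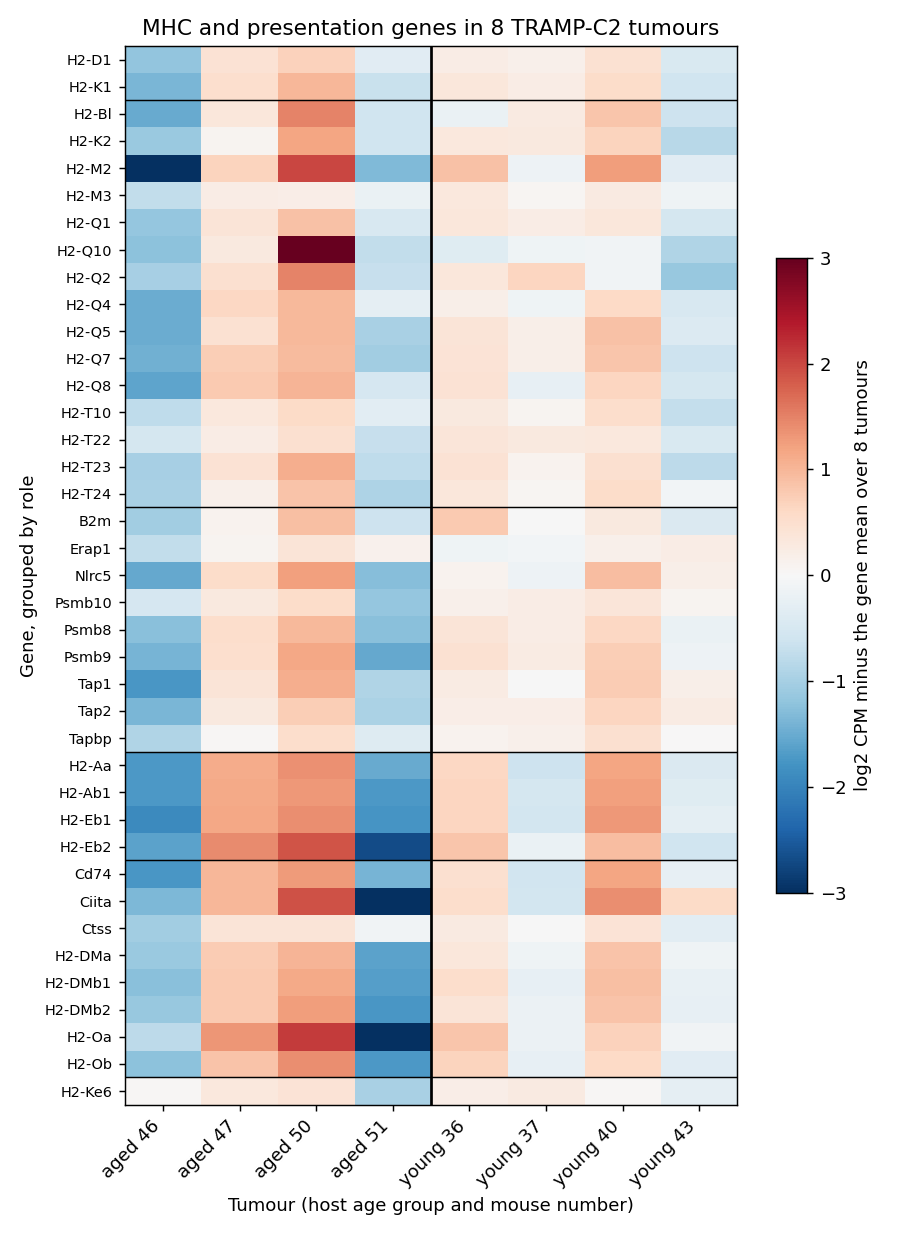
Level of the 39 tested members in each tumour, as log2 CPM minus the mean of that gene over the 8 tumours (colour, limited to -3 and 3), with genes in rows grouped by role and tumours in columns. Aged 46 and aged 51 are blue and aged 50 red in most rows, and the young tumours lie between them in most rows.

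The spread followed the same tumours in nearly every member. All 39 tested members had a wider log2 range among the 4 aged than among the 4 young tumours, which held for 71.5% of all tested genes. The median log2 range of the class I members was 2.09 in aged and 0.97 in young tumours, and that of the class II members 2.89 and 1.24. The highest CPM lay in aged 50 and the lowest in aged 46 or aged 51 for 36 of the 39, 24 of 26 in class I and 11 of 12 in class II among them. Both held for 14.5% of all tested genes, a maximum in aged 50 for 22.7% and a minimum in aged 46 or 51 for 47.9%. Class I members together took 0.144% of all fragments in aged 46 and 0.212% in aged 51, against 0.386% in aged 47, 0.57% in aged 50 and 0.24% to 0.429% in the young tumours. Class II members took 0.106% and 0.15% in aged 46 and 51, 0.58% and 0.671% in aged 47 and 50, and 0.233% to 0.628% in the young tumours. The aged group thus held both the highest and the lowest tumours, and the young range lay within the aged range for both classes. These orders are a description, and whether the spread itself differs between host ages was not tested.

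The classical heavy chains H2-K1 and H2-D1 carry most peptide presentation to CD8 T cells, and both are on chromosome 17 (GRCm38), at 33996012 to 34000619 and 35263094 to 35267497. H2-K1 stood at 218, 791, 1125 and 355 CPM in aged 46, 47, 50 and 51 and at 710.0, 657, 819 and 372 CPM in young 36, 37, 40 and 43. H2-D1 stood at 264, 799.7, 968 and 474 CPM in aged 46, 47, 50 and 51 and at 692, 667, 823 and 434 CPM in young 36, 37, 40 and 43. In both genes aged 46 was lowest and aged 50 highest, and the young tumours fell inside the aged range. H2-K1 averaged 622 ± 415 CPM (aged) against 639.6 ± 191 CPM (young) as mean ± SD of 4 tumours, and the fitted log2 fold change was -0.06 ± 0.45 (± SE) with an adjusted p of 0.99 by edgeR. The fold change of H2-D1 was -0.08 ± 0.35 (edgeR, adjusted p = 0.98). With an interval of about 2 SE to each side (-0.97 to 0.84 for H2-K1), neither a lower nor a higher level in aged hosts was resolved. Per length, as FPKM, the 2 genes together made up 70.5% to 74.7% of the summed heavy chain level in every tumour, so their share hardly moved while the sum ran from 330.2 FPKM (aged 46) to 1426 FPKM (aged 50). The level of H2-D1 per length was 1.06 to 1.64 times that of H2-K1, and the mean log2 ratio differed by 0.07 between host ages. The exact permutation p of that difference, two-sided over 70 assignments of which the smallest p is 0.029, was 0.63 (adjusted p = 0.69 over 6 ratios).

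**Figure D2:**
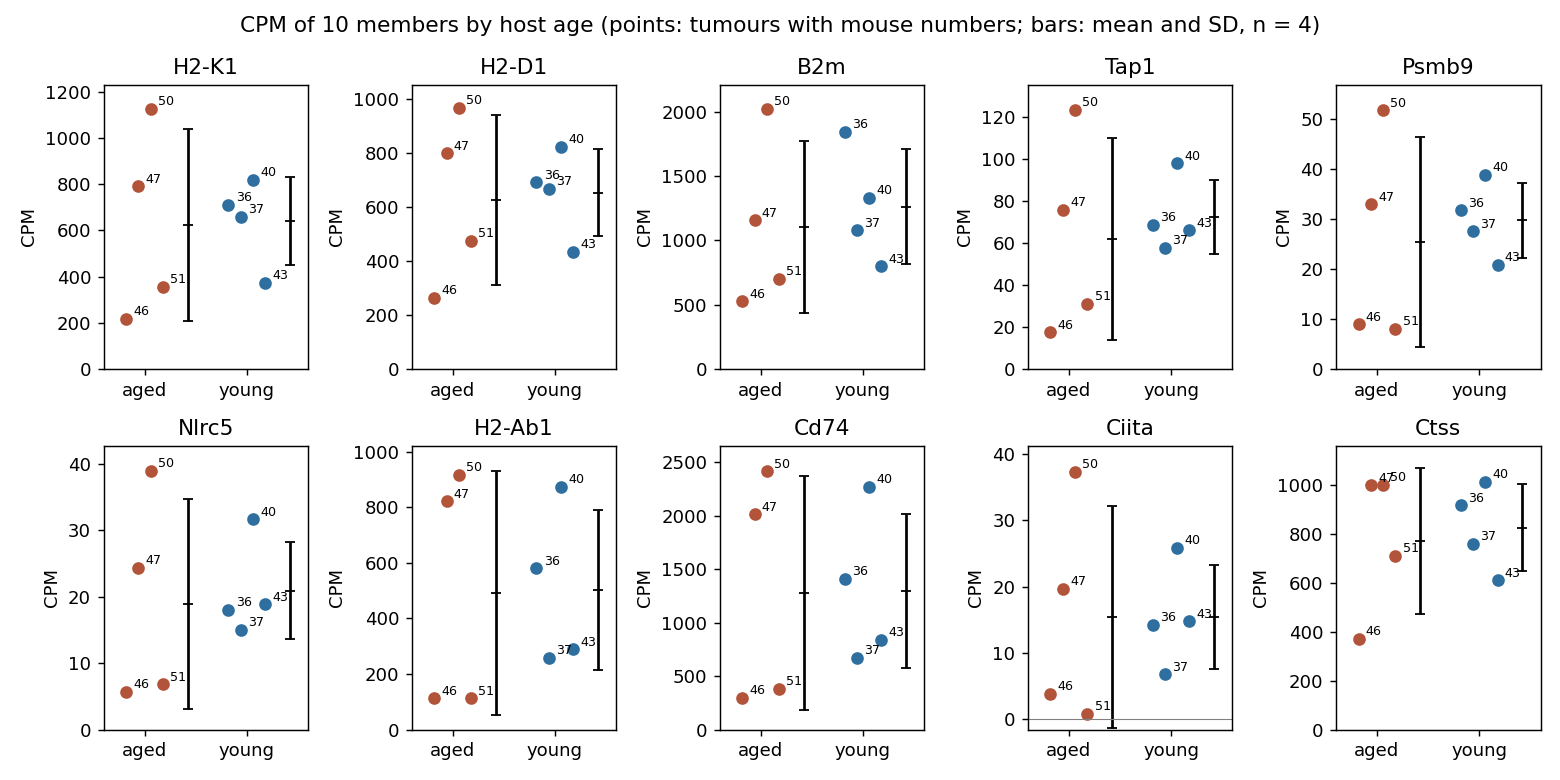
CPM of 10 members in each of the 8 tumours, with mouse numbers beside the points and the mean and SD of each group (n = 4) as bars. Heavy and light chains, peptide supply with Nlrc5 and class II genes are shown. The aged tumours spread more widely than the young tumours in each panel, and all groups overlap.

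The other class I heavy chains number 29, of which 15 could be tested, and none was called. 8 of the 15 were lower in aged tumours, and the median log2 fold change was -0.05. H2-T23, which encodes Qa-1, a ligand of the NK cell receptor pair CD94 and NKG2A, was the most abundant of them per length. It stood at 62.7, 170.1, 266 and 73.3 CPM in aged 46, 47, 50 and 51 and at 168, 135, 175 and 72.9 CPM in young 36, 37, 40 and 43. Aged 50 lay above every young tumour and aged 46 below every one, with a log2 fold change of 0.03 ± 0.45 (edgeR, adjusted p = 0.995). H2-Q4 followed at 26.5, 115, 148 and 62 CPM in the aged tumours and 84.5, 69, 113 and 53.6 CPM in the young tumours, a fold change of 0.12 ± 0.44. H2-Q7, of the Qa-2 family, stood at 14.3, 64.7, 75.2 and 18.9 CPM in the aged tumours and 52, 43.7, 69.9 and 25.3 CPM in the young tumours, a fold change of -0.17 ± 0.52. In both, aged 46 was lowest and aged 50 highest. H2-M3, which presents formylated peptides, varied least of the tested members relative to its lowest tumour, with 20.9, 40.4, 40.1 and 30.1 CPM in the aged tumours and 43, 36.4, 41.6 and 31.9 CPM in the young tumours. It spanned 2.05-fold over the 8 tumours, with a log2 fold change of -0.22 ± 0.20 (edgeR, adjusted p = 0.92). H2-T22 and H2-T10, which bind gamma delta T cell receptors, stood at 2.88 to 6.48 CPM and 7.83 to 20 CPM over the 8 tumours, with the groups overlapping. The remaining tested genes of this kind were H2-Q5, H2-Q1, H2-T24, H2-K2, H2-Q8, H2-Q2, H2-Bl and H2-M2, whose medians over the 8 tumours ran from 0.308 CPM (H2-M2) to 12.8 CPM (H2-Q1). Their log2 fold changes ran from -0.28 (H2-Q5) to 0.31 (H2-Q2). Among the young tumours, young 43 was lowest in all 17 tested heavy chains, H2-K1 and H2-D1 included, which held for 34.5% of all tested genes and was noticed after the values were seen. It was not lowest in the transactivators: Nlrc5 stood there at 18.9 CPM and Ciita at 14.7 CPM, both above young 36 and young 37. The epithelial markers Epcam (0.7 CPM) and Krt18 (3.81 CPM) were lowest in young 43 of all 8 tumours. The 5 leukocyte markers were each lowest in young 43 among the young tumours, also noticed after the values were seen. They summed there to 587 CPM, against 755 to 908 CPM in the other young tumours. The part of either set of markers was not tested.

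H2-Q10 encodes a secreted class I molecule known mainly from liver, and it departed from the other heavy chains in a single library. It stood at 2.26, 6.49, 48.9 and 3.18 CPM in aged 46, 47, 50 and 51 and at 4.13, 4.84, 4.92 and 2.83 CPM in young 36, 37, 40 and 43. Aged 50 alone was high, and the other 7 tumours lay between 2.26 and 6.49 CPM. The log2 fold change of 1.82 ± 0.89, the largest in size of all 39 tested members, did not pass edgeR's test (adjusted p = 0.92) and was -0.06 without aged 50. Aged 50 was also high in genes of the male accessory glands, chosen after their values were seen. The prostate gene Pbsn stood at 2419 CPM in aged 50, at 654 CPM in young 36 and at 2.24 to 129 CPM in the other 6, and Svs2 at 17892 CPM in aged 50 and 8867 CPM in young 36. Msmb, a further gland gene, stood at 497 CPM in aged 50 and at 31.2 CPM in young 36. It reached at most 4.76 CPM in the other 6. In young 36 H2-Q10 stood at 4.13 CPM, within the range of the other tumours. The liver genes Alb and Apoa1 reached at most 0.104 and 0.0347 CPM in any tumour. The part of gland transcripts in the H2-Q10 value was not tested. Of the 50-base stretches in GENCODE transcripts of H2-Q10, 19% occur in another gene, most of them in H2-Q7, and H2-Q7 itself reached 75.2 CPM in aged 50, close to its 69.9 CPM in young 40. Such sharing amounted to 36.4% for H2-Q5, 34.5% for H2-T22, 26.4% for H2-Q7, 21.8% for H2-Q4, 13.6% for H2-T23, 12.8% for H2-D1 and 9.63% for H2-K1, so reads could be split among these genes and single values are less certain than their sum.

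The light chain, the loading and trimming factors, the immunoproteasome and Nlrc5 were all fitted lower in aged tumours (9 of 9), and none was called (median log2 fold change -0.25, beside 44.7% lower and 0.03 over all tested genes). The direction was not firm: under limma voom the median was -0.065 with 7 of 9 lower, and with 1 tumour left out only Tap2, Tapbp and Psmb10 kept their sign in every case. B2m, the light chain, was the most abundant member per length, with a median of 1302 FPKM and rank 60 of the 14575 tested genes. It stood at 526, 1157, 2024 and 701 CPM in aged 46, 47, 50 and 51 and at 1846, 1077, 1329 and 796 CPM in young 36, 37, 40 and 43. Aged 50 and young 36 were highest, and its log2 fold change was -0.22 ± 0.41 (edgeR, adjusted p = 0.95). Tap1 and Tap2 form the peptide transporter. Tap1 stood at 17.4, 75.7, 123 and 31.1 CPM in aged 46, 47, 50 and 51 and at 68.6, 57.6, 98 and 66.1 CPM in young 36, 37, 40 and 43. Tap2 had 15.1, 48.4, 66 and 20.3 CPM in the aged tumours and 45.3, 44.8, 61.8 and 46.2 CPM in the young tumours. In both, aged 46 and aged 51 were below every young tumour and aged 50 above every one. The log2 fold changes were -0.25 ± 0.49 and -0.42 ± 0.39 (edgeR, adjusted p = 0.95 and 0.92). That of Tap2 was the lowest of all tested members, and it kept its sign with any 1 tumour left out (-0.82 to -0.18). Tapbp, the loading bridge, had 128, 241, 339 and 181 CPM in the aged tumours and 255, 262, 328 and 239.6 CPM in the young tumours, with a log2 fold change of -0.29 ± 0.24. Erap1, the trimming aminopeptidase, had 33, 57.7, 72.3 and 60.2 CPM in the aged tumours and 50, 51.8, 60.7 and 63.8 CPM in the young tumours. It spanned only 2.19-fold, and aged 51, low in most members, stood at 60.2 CPM, near the median of 59 CPM. Nlrc5, the class I transactivator, stood at 5.73, 24.4, 38.9 and 6.85 CPM in aged 46, 47, 50 and 51 and at 18.1, 15.1, 31.7 and 18.9 CPM in young 36, 37, 40 and 43. Aged 46 and 51 lay below every young tumour, aged 50 above every one, and the log2 fold change was -0.16 ± 0.55 (edgeR, adjusted p = 0.98). Exons of Psmb9 and Tap1, and of Erap1 and Cast, overlap on opposite strands, and the strand setting of the counting is not given in the sources used here.

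The immunoproteasome subunits Psmb8, Psmb9 and Psmb10 replace the constitutive catalytic subunits Psmb5, Psmb6 and Psmb7, and the ratio of each pair within a library does not depend on its depth. Psmb9 stood at 8.89, 32.9, 51.6 and 8.01 CPM in aged 46, 47, 50 and 51 and at 31.6, 27.5, 38.7 and 20.8 CPM in young 36, 37, 40 and 43. Psmb8 had 27.3, 93, 126 and 27.3 CPM in the aged tumours and 84.3, 75.1, 99.3 and 56.7 CPM in the young tumours. Psmb10 had 40.8, 70.2, 84.4 and 25.7 CPM in the aged tumours and 64, 67.9, 74.9 and 61.2 CPM in the young tumours. In all of them aged 46 and 51 were below every young tumour and aged 50 above. Their constitutive counterparts varied little: Psmb5 ran from 81.6 to 112 CPM, Psmb6 from 158 to 211 CPM and Psmb7 from 174 to 238 CPM over the 8 tumours. The groups did not overlap in Psmb7, with 192 to 238 CPM (aged) against 174 to 188 CPM (young). This held for 3.66% of all tested genes. Its log2 fold change was 0.23 ± 0.12 (edgeR, adjusted p = 0.92), so the Psmb10 to Psmb7 ratio also carries a difference in Psmb7. The ratio of Psmb9 to Psmb6, per length, was 0.0542, 0.225, 0.369 and 0.0633 in aged 46, 47, 50 and 51 and 0.224, 0.174, 0.285 and 0.169 in young 36, 37, 40 and 43. Aged 46 and 51 lay below every young tumour in this ratio too, and aged 50 above every one. The ratio of Psmb8 to Psmb5 was 0.192, 0.607, 0.911 and 0.238 in aged 46, 47, 50 and 51 and 0.612, 0.478, 0.728 and 0.471 in young 36, 37, 40 and 43. For Psmb10 to Psmb7 it was 0.437, 0.889, 1.12 and 0.318 in aged 46, 47, 50 and 51 and 0.933, 0.942, 1.01 and 0.878 in young 36, 37, 40 and 43. The young tumours lay close together in the last ratio, with an SD of the log2 ratio of 0.083 against 0.85 in the aged tumours (n = 4 each). The mean log2 ratios differed by -0.68, -0.50 and -0.62 in that order (aged minus young), and the groups overlapped. The exact two-sided permutation p-values were 0.40, 0.37 and 0.34 (adjusted p = 0.69 for each over 6 ratios). Psme2, a proteasome activator subunit that interferon gamma also raises, had 51.4, 98, 117 and 45.2 CPM in the aged tumours and 92.7, 101, 103 and 80.5 CPM in the young tumours, lowest in aged 51 and highest in aged 50. Of the 9 constitutive and activator genes listed, 0 were called, with 6 higher and 3 lower.

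**Figure D3:**
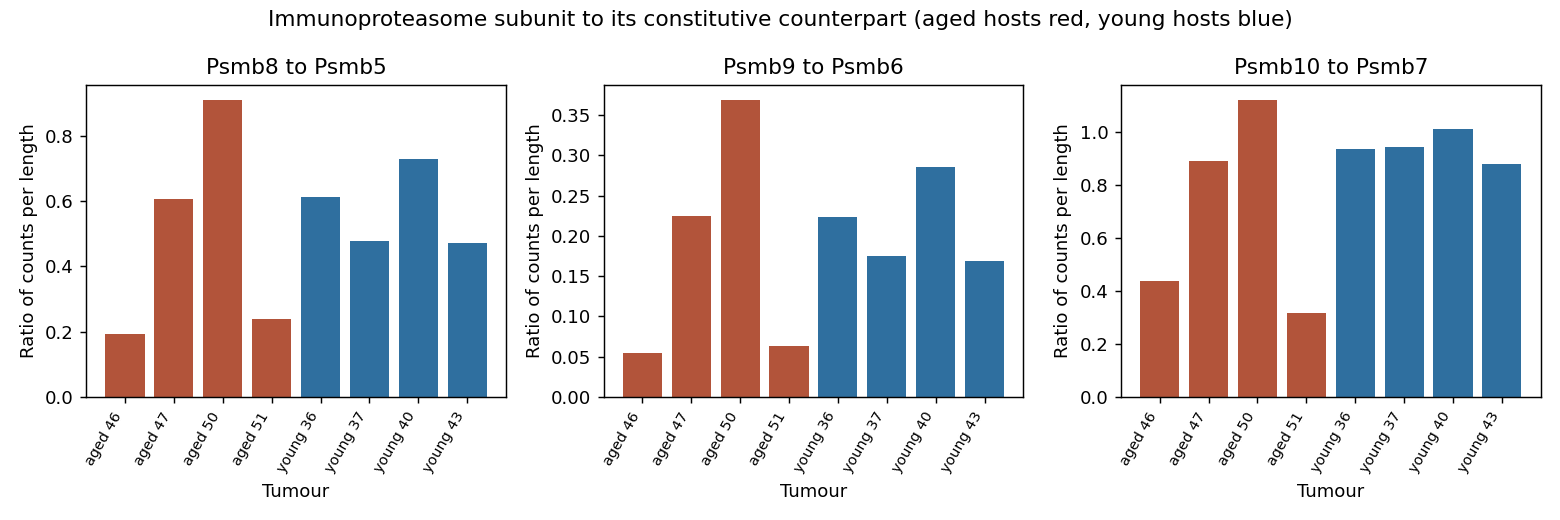
Ratio of each immunoproteasome subunit to the constitutive subunit it replaces (fragments per transcript length, linear axis from 0), as 1 bar per tumour, aged hosts in red and young hosts in blue. Aged 46 and 51 are lowest and aged 50 highest in all 3 panels, while the young tumours lie between 0.878 and 1.01 in the third.

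The abundant class II chains ranked the 6 tumours other than aged 46 and 51 in 1 order, and none was called. H2-Aa and H2-Ab1 form the I-A molecule, the only class II molecule on the surface of C57BL/6 cells. H2-Aa stood at 139.8, 999, 1199 and 163 CPM in aged 46, 47, 50 and 51 and at 712, 302, 1050.5 and 341 CPM in young 36, 37, 40 and 43. H2-Ab1 stood at 113, 821, 916 and 113 CPM in aged 46, 47, 50 and 51 and at 579.7, 259, 874 and 289 CPM in young 36, 37, 40 and 43. H2-Eb1, the beta chain of I-E, had 95.8, 795, 945 and 105 CPM in the aged tumours and 565, 244, 886 and 293 CPM in the young tumours. Aged 46 and 51 were the lowest tumours in each, followed by young 37 and young 43, and aged 47, aged 50 and young 40 were the highest. Over the 8 tumours the 3 genes spanned 8.58-fold, 8.14-fold and 9.86-fold, against 5.17-fold for H2-K1. Their log2 fold changes were 0.02 ± 0.70, -0.06 ± 0.71 and -0.07 ± 0.75 (SE; edgeR, adjusted p = 0.998, 0.995 and 0.994). Under limma voom with sample weights those of H2-Ab1 and H2-Eb1 were 0.40 and 0.38, also without a call, and the median of the class II members was 0.36. The interval of about 2 SE for H2-Ab1, -1.49 to 1.37, is wide on both sides of 0. H2-Eb2 was rare, with 0.279, 2.26, 3.14 and 0.132 CPM in the aged tumours and 1.49, 0.739, 1.59 and 0.56 CPM in the young tumours. H2-Ea-ps, the defective Ea gene, had 1 fragment, in young 36, and 0 in the other 7 tumours. The ratio of H2-Ab1 to H2-K1, per length, was 0.995, 1.99, 1.56 and 0.608 in aged 46, 47, 50 and 51 and 1.57, 0.758, 2.05 and 1.49 in young 36, 37, 40 and 43. It was lowest in aged 51 and young 37, and the mean log2 ratio differed by -0.24 (exact two-sided permutation p = 0.69, adjusted p = 0.69 over 6 ratios).

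Among the genes that assemble and load class II molecules, Cd74 was the most abundant, with a median of 795 FPKM and rank 96 of the tested genes. It stood at 300.0, 2011, 2415 and 380.1 CPM in aged 46, 47, 50 and 51 and at 1406, 674, 2266 and 842 CPM in young 36, 37, 40 and 43, in the same order of tumours as H2-Aa, and its log2 fold change was -0.05 ± 0.66 (edgeR, adjusted p = 0.995). Its level per length was 2.06 to 2.86 times that of H2-Ab1, a narrow range beside the 8.05-fold span of Cd74 itself. The mean log2 ratio differed by 0.07 between host ages (exact two-sided permutation p = 0.57, adjusted p = 0.69 over 6 ratios). H2-DMa and H2-DMb1 form the peptide editor H2-DM. H2-DMa had 19.1, 69.6, 83.9 and 13.5 CPM in the aged tumours and 52.1, 37.6, 74.7 and 37.6 CPM in the young tumours. H2-DMb1 had 15.9, 65.3, 83.4 and 12.1 CPM in the aged tumours and 54.2, 32, 71.3 and 32.7 CPM in the young tumours. Both were lowest in aged 51, with aged 46 next. H2-DMb2 followed them at 2.42 to 19.6 CPM, and 24.8% of its 50-base stretches occur in another gene, mostly H2-DMb1. H2-Oa and H2-Ob form H2-O, the inhibitor of H2-DM, known mainly from B cells. H2-Ob had 0.929, 3.97, 5.7 and 0.662 CPM in the aged tumours and 3.47, 1.85, 3.33 and 1.74 CPM in the young tumours. H2-Oa had 0.557, 2.43, 4.12 and 0.0662 CPM in the aged tumours and 1.73, 0.85, 1.56 and 0.896 CPM in the young tumours, where the value of aged 51 rests on 2 fragments. Ctss stood apart from the other class II genes in its narrow range. It had 371, 999, 1002 and 712 CPM in the aged tumours and 918, 759.9, 1014 and 611 CPM in the young tumours, a 2.73-fold span, and aged 51 lay at 712 CPM, above young 43. Its log2 fold change was -0.11 ± 0.29 (edgeR, adjusted p = 0.96).

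Ciita, the class II transactivator, spanned more than H2-Aa, H2-Ab1 or H2-Eb1, which it controls. It stood at 3.84, 19.6, 37.3 and 0.86 CPM in aged 46, 47, 50 and 51 and at 14.2, 6.76, 25.8 and 14.7 CPM in young 36, 37, 40 and 43, a 43.4-fold span, with a log2 fold change of -0.03 ± 0.88 (edgeR, adjusted p = 0.998). Aged 51 was lowest with 26 fragments, below the 3.84 CPM of aged 46, while H2-Ab1 stood at 113 CPM in both. Of the 8 dendritic cell markers 4 were also lowest in aged 51, namely Itgax (1.46 CPM against 6.87 to 23.8 CPM), Cd209a (0.0331 CPM, which is 1 fragment, against 0.557 to 3.15 CPM), Ccr7 and Batf3. The other 4 were lowest in another tumour, Flt3 in young 43 and Zbtb46, Clec9a and Xcr1 in aged 46, and stood at 1.85, 2.45, 1.65 and 0.529 CPM in aged 51. All but Itgax were named after their values were seen. Their part in the Ciita value was not tested. Exons of Ciita and Dexi overlap on opposite strands. With the strand setting of the counting not given, fragments within the overlap cannot be told apart, and the size of the overlap was not measured.

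**Figure D4:**
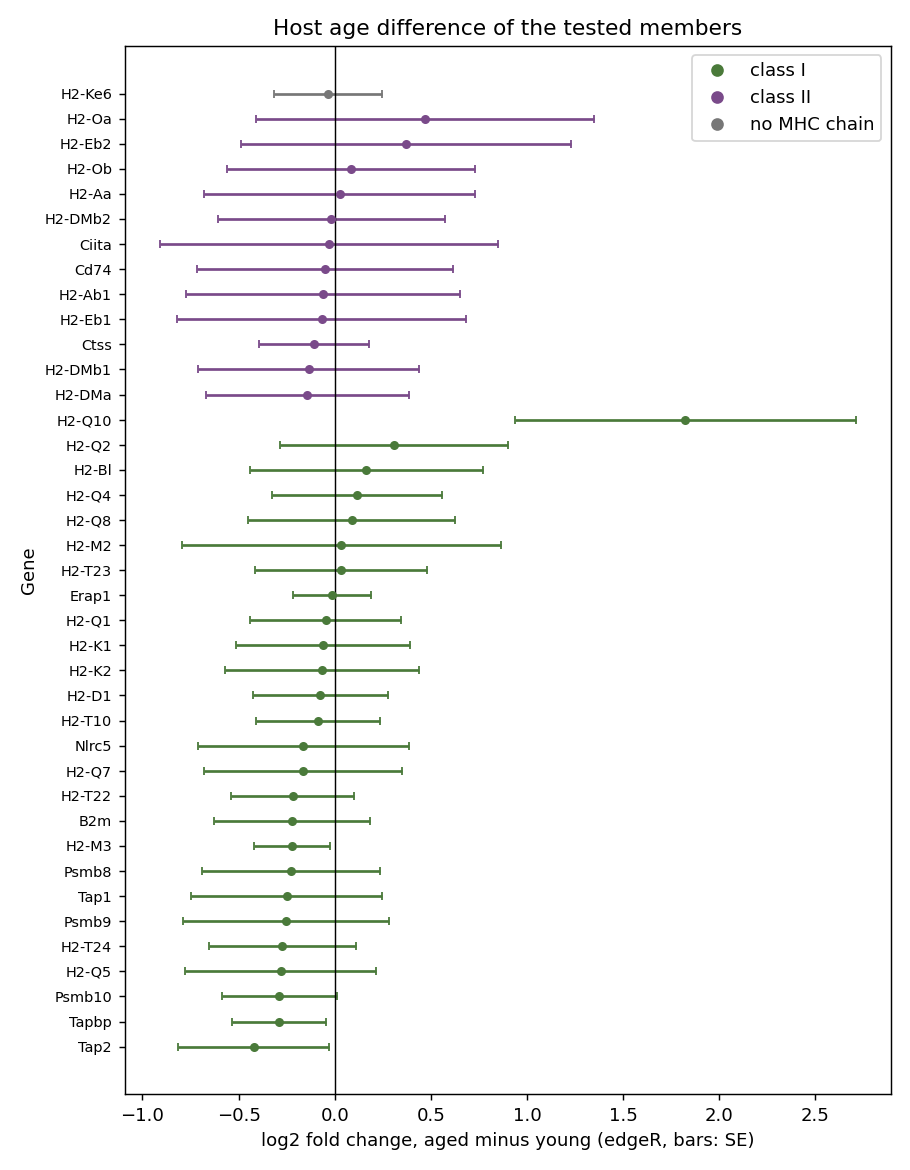
Log2 fold change (aged minus young, edgeR) of the 39 tested members with bars of 1 SE, sorted within class I, class II and H2-Ke6. Most class I members lie left of 0 and none passed the test, and H2-Q10 at 1.82 stands apart through aged 50.

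The 6 pairs described here, of a transactivator, leukocyte or class I gene with an MHC gene, were positively correlated in log2 CPM over the 8 tumours. P-values are adjusted over the 7 pairs computed, and the labels give no batch within which to repeat them. The values of a pair share a library and its cell makeup. Ciita and H2-Ab1 had r = 0.91 (exact permutation p = 0.00017, adjusted 0.0011) and rho = 0.98 (exact permutation p = 0.0004, adjusted 0.0014). Leaving out the tumours farthest from the median of Ciita, aged 46 and 51, gave r = 0.86 (exact permutation p = 0.0083, n = 6). Nlrc5 and H2-K1 had r = 0.89 (exact permutation p = 0.0016, adjusted 0.0023) and rho = 0.93 (exact permutation p = 0.0022, adjusted 0.0026). Without the same 2 tumours r was 0.69 (exact permutation p = 0.13, n = 6) and rho was 0.83 (no test). With 6 tumours left, whether the relation holds without these 2 cannot be decided. Young 43 had H2-K1 at 372 CPM with Nlrc5 at 18.9 CPM, while young 36 had 710.0 CPM with 18.1 CPM. Ptprc, which encodes the leukocyte antigen CD45, and H2-K1 had r = 0.92 (exact permutation p = 0.00032, adjusted 0.0011) and rho = 0.98 (exact permutation p = 0.0004, adjusted 0.0014), and r was 0.77 (exact permutation p = 0.037, n = 6) without the 2 tumours. Ptprc and H2-Ab1 had r = 0.94 (exact permutation p = 0.00082, adjusted 0.0016) and rho = 0.93 (exact permutation p = 0.0022, adjusted 0.0026), and r was 0.82 (exact permutation p = 0.046, n = 6) without them. Adgre1, the macrophage marker F4/80, and H2-Ab1 had r = 0.87 (exact permutation p = 0.0048, adjusted 0.0052) and rho = 0.79 (exact permutation p = 0.028, adjusted 0.028). Over the tumours of both ages without aged 46 and 51, r was 0.54 (exact permutation p = 0.26, n = 6), and within the 4 aged and the 4 young tumours it was 0.99 and 0.95. H2-K1 and H2-Ab1 themselves had r = 0.90 (exact permutation p = 0.00089, adjusted 0.0016) and rho = 0.95 (exact permutation p = 0.0011, adjusted 0.0026), and r was 0.79 (exact permutation p = 0.019, n = 6) without aged 46 and 51. Within each host age (n = 4, no test), r of the 6 pairs ran from 0.93 to 0.99 in aged tumours and from 0.38 (Nlrc5 with H2-K1) to 0.99 (Ptprc with H2-Ab1) in young tumours.

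**Figure D5:**
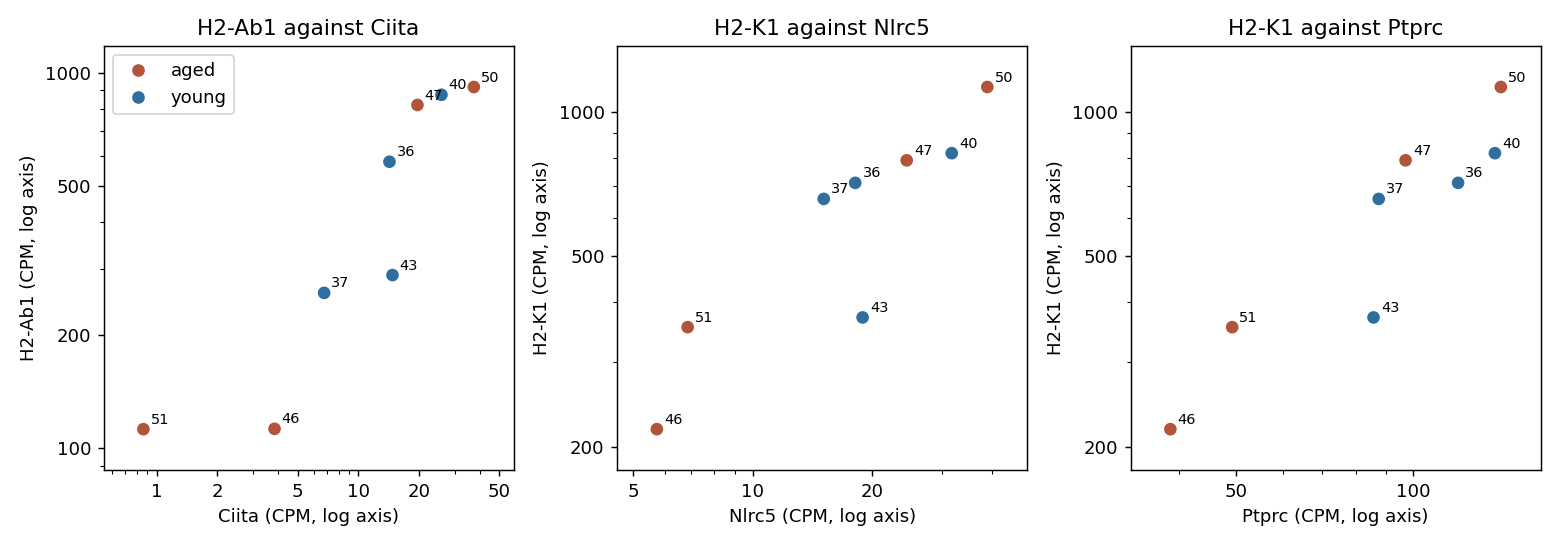
H2-Ab1 against Ciita, H2-K1 against Nlrc5 and H2-K1 against Ptprc in CPM on log axes, 1 point per tumour with its mouse number, aged in red and young in blue. Aged 46 and 51 lie at the lower left and aged 50 at the upper right of each panel, with the young tumours between or among them.

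Ptprc varied alongside the MHC genes, and the macrophage markers did so only in part. Ptprc stood at 38.6, 97, 141 and 49.2 CPM in aged 46, 47, 50 and 51 and at 119, 87.3, 138 and 85.6 CPM in young 36, 37, 40 and 43. The 5 leukocyte markers summed to 336 to 960.4 CPM (aged) and 587 to 908 CPM (young). The 7 macrophage markers summed to 1240.0 to 2699 and 1894 to 2672 CPM, and the 8 dendritic cell markers to 11.1 to 59.8 and 29.5 to 54.3 CPM. All 7 macrophage markers were lowest in aged 46 or 51, beside 47.9% of all tested genes. Highest in aged 50 were 0 of the 7, beside 22.7%. Adgre1, Cd68 and Fcgr1 were lowest in aged 51, at 75.8, 55.9 and 31.6 CPM, and the other macrophage markers in aged 46. In the young tumours Adgre1 ran from 194 to 235 CPM, Cd68 from 123 to 145 CPM and Fcgr1 from 65.1 to 127 CPM. In aged 51 Csf1r stood at 315 CPM, against 324 to 367 CPM in the young tumours. Mrc1, named after its values were seen, was highest in aged 51 at 271 CPM. Of 5 B cell markers 4 were tested, with sums of 2.26 to 20.8 and 4.42 to 14.5 CPM. The untested Pax5, named after its values were seen, was at 0 in aged 46 and 51, which allows up to 0.093 and 0.099 CPM. The 7 T cell markers summed to 13.1 to 80.7 CPM (aged) and 14.3 to 54 CPM (young), and the 5 NK cell markers to 4.04 to 32.9 and 6.33 to 16.4 CPM, with Ncr1 at 0 in aged 46 and 51. None of these lists held a called gene, and their directions were split. Fitted lower in aged tumours were 5 of 5 leukocyte markers (median log2 fold change -0.36), 6 of 7 macrophage markers (-0.24) and 4 of 8 dendritic cell markers (0.02). Fitted higher were 3 of 4 B cell markers (0.77), 6 of 7 T cell markers (0.41) and 3 of 5 NK cell markers (0.46). Over all tested genes 44.7% were lower and the median was 0.03. Per CPM of Ptprc, H2-K1 ran from 4.35 (young 43) to 8.15 (aged 47), a span of 1.88-fold beside 5.17-fold for its CPM. B2m spanned 1.66-fold on this scale, Cd74 2.69-fold, H2-Ab1 3.7-fold and Ciita 15.1-fold. What part the number of leukocytes has in the MHC values was not tested.

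Other genes of the pathways, given by the counts of their whole lists, held no called gene either. Of the interferon gamma axis, 6 of 10 were lower in aged tumours (median -0.15). Ifng itself, named after its values were seen, stood at 0.0929, 0.754, 1.23 and 0.199 CPM in the aged tumours and 0.243, 0.148, 0.624 and 0.532 CPM in the young tumours. Irf1, a transcription factor of the interferon response, had 61.6, 101, 119 and 45.9 CPM in the aged tumours and 109.5, 90.5, 129 and 113 CPM in the young tumours, lowest in aged 51 with aged 46 next. Of 13 other class II regulators and processing genes, 9 were lower (median -0.12). Ifi30, the lysosomal thiol reductase, had 84.8, 139, 173 and 81.4 CPM in the aged tumours and 155, 164, 170.4 and 143 CPM in the young tumours. The folding chaperones Calr, Canx, Pdia3 and Tapbpl were lower in 3 of 4 (median -0.20), and Calr stood at 799.8, 862, 1016 and 522 CPM in the aged tumours and 1086, 1029, 1159 and 822 CPM in the young tumours, lowest in aged 51. Of 10 class I-like genes outside the H2- names, 9 were tested and 4 were lower (median 0.10). Raet1d and Raet1e, stress ligands of NKG2D, had their lowest CPM in aged 50, the tumour with the highest class I level, at 1.04 and 0.814 CPM. Of 6 costimulation genes 4 were lower (median -0.06). Cd40 had 3.41, 11.9, 18.6 and 2.51 CPM in the aged tumours and 13.9, 12.3, 16.2 and 10.4 CPM in the young tumours, lowest in aged 51 and highest in aged 50.

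15 members had too few fragments to be tested, 14 in class I and H2-Ea-ps in class II, and they are described by their fragments only. H2-L, H2-M10.3 and H2-M10.5 had 0 fragments in all 8 tumours. For H2-M10.3 and H2-M10.5 this allows up to 0.084 to 0.111 CPM per tumour. No position for H2-L was found in the reference tables used here, so no limit is given for it. Of the others, 9 had fewer than 10 fragments in every tumour. H2-M9 stood at 7, 14, 6 and 52 fragments in aged 46, 47, 50 and 51 and at 1, 3, 1 and 1 fragments in young 36, 37, 40 and 43. All 4 aged values were above all 4 young values, which were at or under the floor of 3 fragments, and aged 51 alone was well above the rest. Among tested genes 3.66% had groups that did not overlap, and 0 of the 39 tested members. With no filter on low counts the log2 fold change of H2-M9 was 3.58 ± 0.94 (edgeR, adjusted p = 0.86). Aged 51 was also high in the skeletal muscle genes Myh4 (15.2 CPM) and Ttn (10.03 CPM), chosen after their values were seen, against at most 0.52 and 0.87 CPM in the other 7 tumours, and their part in the value was not tested. H2-M5 had 2 to 10 fragments and H2-T3, the thymus leukaemia antigen, 3 to 17 fragments per tumour, with overlapping groups. H2-Ke6, the dehydrogenase gene among the H2- names, had 9.41, 11.4, 12.1 and 4.67 CPM in the aged tumours and 10.5, 10.9, 9.36 and 7.56 CPM in the young tumours, with a log2 fold change of -0.04 ± 0.28. It shares 70.5% of its 50-base stretches with the readthrough model Gm20427.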

How the data were processed

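Bulk mRNA of 8 tumours, 4 per host age, was read as 50 bp paired ends from TruSeq mRNA libraries, per the labels' protocols. Per the submitters' processing notes, bcl2fastq, TopHat2 2.0.12, Picard 2.7.1 and GRCm38 (mm10) were used. No source used here gives the counting program, its annotation or its strand setting. The deposited counts are fragments per Entrez gene, per the file headers. The deposited FPM values are CPM, the count scaled to a total of 1 M fragments, and the deposited FPKM values are that CPM per kilobase of transcript. FPKM served only to compare levels between genes.

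27 symbols that had turned into dates were restored by Entrez number. Counts were tested with edgeR 4.0.16 (filterByExpr, minimum count 10, TMM, robust quasi-likelihood fit, host age as the only term) and Benjamini-Hochberg adjustment over 14575 genes, threshold 0.05. Standard errors are the fold change over the square root of F. Ratios within a library (0.5 fragments added) and gene pairs (0.01 CPM added) were tested by exact permutation, and 1 of the 7 pairs computed and 1 motif searched are not reported here. DESeq2 1.42.0, limma 3.58.1 (voom), other scalings, no filter and tumours left out were the alternatives. Scripts were tested on simulated data.

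Every tested member could be named, untested members with at least 10 fragments in a tumour, and of other lists up to 4 genes with the smallest p. The members and lists were chosen with earlier results of these data known. The labels do not describe the tumours beyond their mouse numbers, and p-values measure the spread between these tumours. The intervals of about 2 SE come from the same fit and rest on that spread, while floors cover counting error only. Libraries differed by at least 42.6 in chi-square per degree of freedom, so none was a copy.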

Additional observations from a re-analysis of the deposited data

Results flagged for a closer look

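Of 96 groups of 4 tumours examined, 6 held a tumour far from the other 3 by Dixon's criterion, which chance gives in about 1 group in 20. In aged 50, H2-Q10 stood at 48.9 CPM, while the other aged tumours lay at 2.26 to 6.49 CPM. Tap2 stood at 61.8 CPM in young 40 against 44.8 to 46.2 CPM in the other young tumours. In young 43, H2-Q1 stood at 7.33 CPM against 12.3 to 13.3 CPM, and H2-T22 at 3.39 CPM against 5.69 to 5.89 CPM. H2-M5 in young 36 (0.0693 CPM against 0.168 to 0.185 CPM) and H2-M9 in young 37 (0.111 CPM against 0.028 to 0.0347 CPM) rest on 2 and 3 fragments.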

How the results depend on the processing

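The result that no member passed the threshold held under each of the 14 alternatives to the gene fit, except that DESeq2 gave no p for H2-Q10, and the smallest adjusted p of any member under any of them was 0.53. The directions were not firm, since 116 of 545 member values had the other sign, 88 of them among the 312 that leave out 1 tumour. Over all genes, edgeR called 0, DESeq2 43 and limma voom with sample weights 9. No paired analysis was possible because the labels give each tumour its own mouse number and the groups share none.

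With 1 tumour left out at a time, these members changed sign, and their log2 fold changes ranged as follows: B2m -0.66 to 0.053, Cd74 -0.54 to 0.33, Ciita -0.94 to 0.36, Ctss -0.24 to 0.11, Erap1 -0.14 to 0.15, H2-Aa -0.49 to 0.40, H2-Ab1 -0.54 to 0.32, H2-Bl -0.55 to 0.46, H2-D1 -0.34 to 0.16, H2-DMa -0.57 to 0.15, H2-DMb1 -0.62 to 0.17, H2-DMb2 -0.56 to 0.29, H2-Eb1 -0.60 to 0.33, H2-Eb2 -0.32 to 0.74, H2-K1 -0.49 to 0.21, H2-K2 -0.64 to 0.17, H2-Ke6 -0.16 to 0.18, H2-M2 -1.04 to 0.40, H2-Oa -0.33 to 0.86, H2-Ob -0.50 to 0.40, H2-Q1 -0.41 to 0.19, H2-Q10 -0.062 to 2.17, H2-Q2 -0.32 to 0.56, H2-Q4 -0.23 to 0.41, H2-Q7 -0.55 to 0.11, H2-Q8 -0.27 to 0.39, H2-T10 -0.30 to 0.089, H2-T23 -0.43 to 0.26, Nlrc5 -0.76 to 0.12, Psmb8 -0.68 to 0.021, Psmb9 -0.84 to 0.029, Tap1 -0.80 to 0.047. The 7 other tested members kept their sign. The ratios of H2-Ab1 to H2-K1 (-0.53 to 0.079), H2-D1 to H2-K1 (-0.028 to 0.18) and Cd74 to H2-Ab1 (-0.025 to 0.13) also crossed 0, and the immunoproteasome ratios did not.

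Under limma voom with sample weights the sign changed for H2-D1 0.059, H2-K1 0.046, Erap1 0.045, Nlrc5 0.12, H2-M2 -0.089, H2-Q1 0.039, H2-Q7 0.12, H2-Ab1 0.40, H2-Eb1 0.38, Cd74 0.38, Ciita 0.26, Ctss 0.044, H2-DMa 0.21, H2-DMb1 0.19, H2-DMb2 0.27 and H2-Ke6 0.085. With upper quartile factors it changed for Ciita 0.0075 and H2-DMb2 0.0020. Without aged 50 and young 36 it changed for H2-Bl -0.64, H2-Q10 -0.048, H2-Q2 -0.19, H2-Q4 -0.18, H2-Q8 -0.14, H2-T23 -0.29, H2-Aa -0.37, H2-Eb2 -0.11, H2-Oa -0.11 and H2-Ob -0.30. Leaving out these 2 tumours also ended the call of Adgre1 with H2-Ab1 (r = 0.86, exact permutation, adjusted p = 0.061). The cause of these changes was not tested. Where tumours were left out, their smaller number and the loss of those particular tumours cannot be told apart. Depth limits H2-M2, H2-Oa and H2-Eb2 most, whose lowest tumours hold 1, 2 and 4 fragments.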
